A study of Mus musculus with 25 samples.

Results

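Blood monocytes were compared between C57BL6 mice fed 45% fat, the high fat diet (HFD), and mice fed 10% fat, the control diet (CD). They made up 9 of the 25 RNA libraries of the study, 6 on CD and 3 on HFD. They were chosen by their labels alone, and no measured value entered the choice. The other 16 libraries came from macrophages sorted from white adipose tissue on the same diets. Every monocyte library was made from 200 cells sorted on CD115 and Ly6C out of blood that had been drawn from the heart into EDTA, then lysed 2 times, and total RNA was amplified as cDNA. The gate is given only as those 2 antigens, without the Ly6C level. The control libraries carry 2 series of titles, CD1 to CD3 and CD-CD6 to CD-CD8, which the labels describe by the same diet. Diet duration, age and the number of animals behind a library are not given in the labels, so the p-values measure the spread between these libraries, which may be partly technical. Fewer cells of a type and less RNA per cell cannot be told apart in such bulk samples.

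Monocytes are short-lived myeloid cells that leave the bone marrow through the chemokine receptor CCR2 and give rise to macrophages in inflamed tissue. Classical mouse monocytes carry high Ly6C and CCR2, whereas non-classical monocytes carry low Ly6C, depend on the nuclear receptor NR4A1 and patrol the vessel wall. In obesity, monocytes recruited from the blood are a known source of adipose tissue macrophages.

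The gated genes were high in all 9 libraries. Ly6c2, which encodes the Ly6C antigen, measured 404 to 514 CPM in the control libraries with a median of 440 CPM, and 399, 622 and 433 CPM in HFD libraries 1, 2 and 3. CPM is a gene's read count scaled to the library's total, after TMM normalization. Csf1r, which encodes CD115, the receptor for macrophage colony-stimulating factor, measured 361 to 482 CPM in the controls with a median of 404 CPM, and 437, 468 and 436 CPM under HFD. Both ranges overlapped between the diets, with log2 differences of HFD minus CD of 0.11 (SE 0.14) for Ly6c2 and 0.14 (SE 0.10) for Csf1r. The label of a monocyte sort was thus met by its own markers, which the gate itself selected.

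Per length of the gene model, the transcriptome was led by genes of myeloid cells. The 20 highest single-copy protein-coding genes by RPKM (CPM per kilobase) began with Lyz2, which encodes lysozyme, at 1942 ± 115 RPKM in the controls (SD, n = 6) and 1929 ± 157 under HFD (SD, n = 3). Tmsb4x, an actin-binding peptide gene, stood at 1698 ± 190 and 1882 ± 344 RPKM. Tyrobp and Fcer1g, the adaptor chains of activating immune receptors, stood at 1111 ± 110 and 987 ± 105 RPKM in the controls. B2m, Ifitm3, Plac8 and Cd52 followed, then Ifi27l2a, Wfdc17, Ccl6, Cst3, Ctss, Crip1, Arhgdib, Gpx1, Ifitm6, Sh3bgrl3, Mgst1 and S100a4. Diet differences among these 20 genes ran from -0.01 to 0.24 on the log2 scale, and their 95% intervals lay between -0.23 and 0.60. The smallest unadjusted p among them was 0.0503, for Crip1, a small LIM-domain protein gene, at 678 ± 52 RPKM in the controls and 796 ± 96 under HFD (edgeR's quasi-likelihood test, adjusted p = 0.829). Some abundant housekeeping genes read low in the table. Gapdh, a glycolytic enzyme gene with many pseudogene copies, was at 0.954 to 4.75 CPM over the 9 libraries, and how reads with several matches were counted is not stated.

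The T cell, NK cell and B cell marker lists varied between libraries far more than the monocyte lists. The 12 classical monocyte genes summed to 8882 to 10660 CPM in the controls and to 8678, 9919 and 11510 CPM in the HFD libraries. The 14 non-classical genes summed to 1586 to 2549 CPM and to 2195, 2394 and 2498 CPM. Their ratio ran from 3.47 in HFD library 3 to 6.24 in library CD-CD6. T cell markers, by contrast, summed to 3.64 CPM in the lowest library and 319 CPM in the highest, and NK cell markers to 1.42 and 260 CPM. Nkg7, a granule protein gene of cytotoxic lymphocytes, was at 0 in CD2 and HFD1 and at 118 CPM in HFD3, so this signal was present and absent on both diets. Red cell genes, mostly haemoglobin, summed to 451 to 1713 CPM, platelet genes to 146 to 514 CPM and dendritic cell genes to 334 to 924 CPM. The B cell sum of 9.72 to 106 CPM was mostly Cd79b, with Ms4a1, which encodes CD20, at no more than 0.717 CPM in any library. The neutrophil sum of 84.2 to 179 CPM was mostly Csf3r, which monocytes also express, with Ly6g at no more than 1.43 CPM. Adipocyte genes reached 10.6 CPM at most. Xist stayed at or below 1.54 CPM and the Y-linked Ddx3y lay between 196 and 548 CPM in all 9 libraries.

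**Figure D1:**
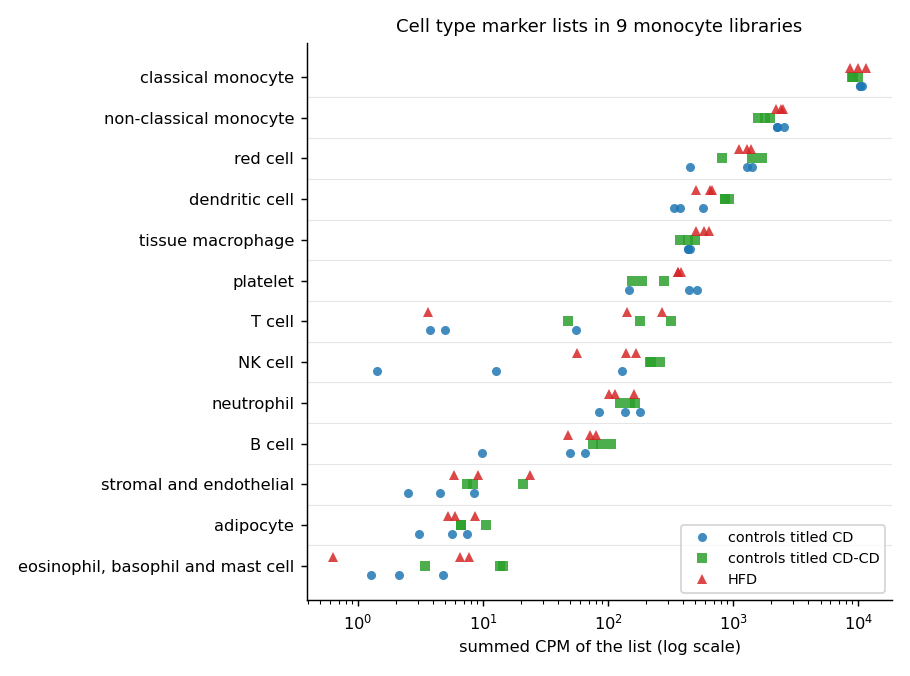
Summed CPM (log axis) of cell type marker lists in each of 9 monocyte libraries, with controls titled CD as circles, controls titled CD-CD as squares and HFD as triangles. Monocyte sums keep to a narrow range, whereas T cell sums spread from 3.64 to 319 CPM and NK cell sums from 1.42 to 260 CPM. The lowest T cell sums include libraries of both diets, and the lowest NK cell sums are those of CD1 and CD2.

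The tissue macrophage list was the cell type list in which all HFD libraries stood above all controls. Its 12 genes summed to 379 to 499 CPM in the controls, with a median of 438 CPM, and to 580, 640 and 504 CPM in HFD libraries 1, 2 and 3. Most of the sum came from Adgre1, which encodes F4/80 and is also a monocyte gene, and from Mrc1, the mannose receptor gene. Adgre1 was at 312 to 377 CPM in the controls and 406, 468 and 324 CPM under HFD, with an unadjusted p of 0.0762 in edgeR's test, and its ranges overlapped. Defining markers of resident macrophages were at or near 0, with Timd4 up to 0.711 CPM, Lyve1 up to 1.06, Mertk up to 1.07, Vsig4 up to 0.318 and C1qa up to 0.586 CPM. Of the 6 list members that could be tested, 1 had an unadjusted p under 0.05 and it was higher under HFD (C1qc, below), against 2.14% of all genes in that direction.

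Depth was even, at 8405848 to 9336395 counts in the controls and 6502394 to 9004373 under HFD, and 3 counts corresponded to 0.321 to 0.461 CPM. No molecular identifiers are described, so this floor covers counting error alone. HFD library 2 was the shallowest, had the fewest genes with at least 5 counts (10589) and stood apart from the other 8 on the first principal component. Transcripts of 1456 olfactory and vomeronasal receptor genes, which monocytes are not expected to use, summed to 85.3 to 243 CPM. Total counts, detected genes, this background, the share of the top 100 genes and the share of non-coding counts were compared between diets with a two-sided exact permutation test, which can give no p below 0.0119 here. The p-values were 0.0833 to 0.893, and adjusted over the 5 measures 0.416 to 0.893.

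The spread among controls depended steeply on level. Across genes, log2(CPM + 1) of 2 libraries correlated at 0.847 to 0.899 over the 36 pairs (Pearson; genes are not independent replicates), with 43.9 to 70.2 times the variance expected from read sampling. Pairs within HFD correlated at 0.856 to 0.873, which lies inside the range of 0.851 to 0.883 for pairs of a CD-titled and an HFD library. For the 209 genes at 500 CPM or more the median coefficient of variation over the 6 controls was 9.29%. It was 17.3% for 2954 genes at 100 to 500 CPM, 35.8% for 4199 genes at 20 to 100 CPM and 70.9% for 2395 genes at 5 to 20 CPM. Of the 7362 genes averaging at least 20 CPM in the controls, 65 (0.883%) had a control library under 3 counts.

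The steadiest of these genes included Mrpl1 and Coa3, which encode mitochondrial proteins, Xbp1, a transcription factor of the unfolded protein response, and Ostf1, Gtf2h5 and 1110008F13Rik. Mrpl1 lay between 171 and 177 CPM in the 6 controls, and Xbp1 between 452 and 481 CPM. The most variable were lymphocyte genes (Nkg7, Gzma, Gimap4, Cd3g, Cd8b1, Klrc1), the C-type lectin genes Cd209d and Cd209e, and Lcn2, Spp1, Wfdc21 and Ifi44. Cd3g, a chain of the T cell receptor complex, was at 0 in CD1 and CD2 and at 104 CPM in CD-CD6. Ifi44, an interferon-stimulated gene, was at 0 in CD-CD7 and at 102 CPM in CD1. These genes ranged from undetected to abundant within the same diet.

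No gene passed an adjusted p of 0.05 between 3 HFD and 6 CD monocyte libraries. Of 11308 genes tested with edgeR's quasi-likelihood test and Benjamini-Hochberg adjustment, 0 were called, and the smallest adjusted p was 0.187. An unadjusted p under 0.05 was reached by 675 genes (5.97%), of which 242 (2.14%) were higher and 433 (3.83%) lower under HFD. The median log2 difference over all genes was -0.01. limma-voom also called 0 genes, with 664 at an unadjusted p under 0.05. DESeq2, in contrast, called 147 genes (1.3%), 30 higher and 117 lower, so whether any single gene counts as changed depended on the tool. Of those 147, 72 had a library under 3 counts and 29 had all 3 HFD libraries under 3 counts. DESeq2 called 451 genes (4.15%) between the 2 title series of the controls, 3 libraries against 3 on the same diet. Its count between HFD and 3 control libraries was 138 (1.29%) with the CD titles and 349 (3.27%) with the CD-CD titles.

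**Figure D2:**
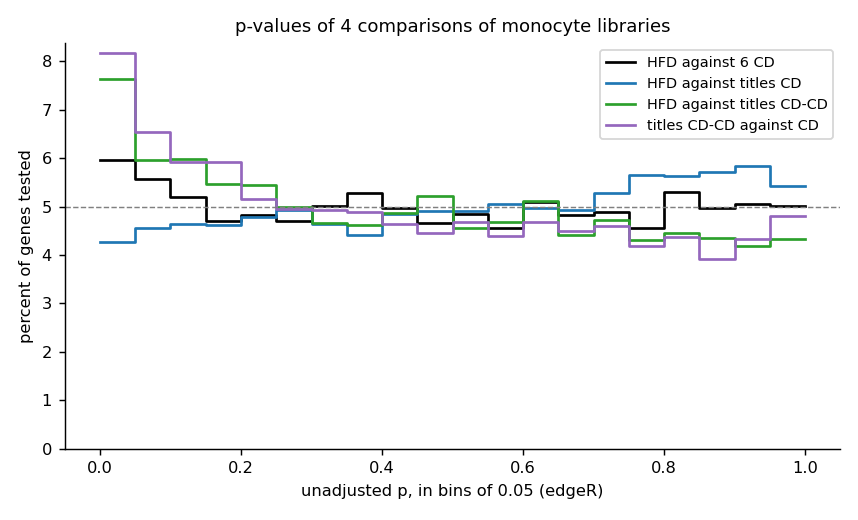
Percent of tested genes (vertical axis) by unadjusted edgeR p in bins of 0.05 (horizontal axis) for HFD against all 6 controls, HFD against each title series, and the 2 title series against each other; the dashed line marks an even spread. The lowest bin holds 5.97% for diet against 6 controls, 4.27% and 7.63% against the CD and CD-CD titles, and 8.17% between the title series.

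The libraries could exclude large diet differences for abundant genes and not for scarce ones. At a mean of 100 CPM or more (3147 genes) the median 95% interval reached 0.39 log2 units to either side, and for 2850 genes (90.6%) it lay wholly within 1 log2 unit, a doubling or halving. At 20 to 100 CPM the interval lay within that range for 1344 of 4240 genes (31.7%), and at 5 to 20 CPM for 13 of 2347 (0.554%). Below 5 CPM no gene of 1574 had such an interval.

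**Figure D3:**
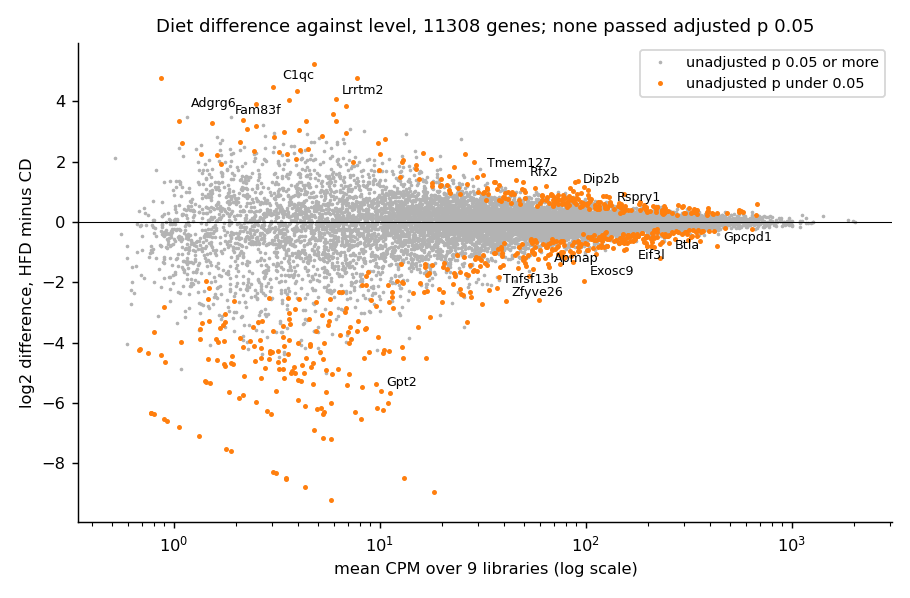
Log2 difference of HFD minus CD (vertical axis) against the mean CPM over 9 libraries (log horizontal axis) for 11308 genes, with unadjusted p under 0.05 in orange and the 16 genes described in the text named. Differences narrow with level: the median absolute value is 0.92 under 5 CPM and 0.14 at 100 CPM or more, and no gene passed the adjusted threshold.

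The 16 genes with the smallest p, 8 in each direction among those reaching 5 CPM in the higher group, are described next as values. Their adjusted p in edgeR's test was 0.187 to 0.721, so none is a call there, and DESeq2 called all 16. In 15 of them the HFD libraries did not overlap with the controls, which the choice by p favours. Over all genes tested, the HFD libraries lay above all controls for 160 (1.41%) and below for 178 (1.57%).

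Gpcpd1 had the smallest p of all. It encodes a phosphodiesterase that releases choline from glycerophosphocholine and lies on chromosome 2 (132529082 to 132578248, mm10). It measured 465 to 603 CPM in the controls with a median of 489 CPM, and 305, 264 and 306 CPM in HFD libraries 1, 2 and 3. All HFD libraries were below all controls. The log2 difference was -0.80 (SE 0.11; edgeR's quasi-likelihood test, adjusted p = 0.187), and it was -0.83 against the CD titles and -0.76 against the CD-CD titles.

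Tnfsf13b encodes BAFF, the B cell survival factor that myeloid cells secrete, and lies on chromosome 8 (10006633 to 10035999). It measured 31.6 to 64.5 CPM in the controls with a median of 51.1 CPM, and 11.3, 8.9 and 12.8 CPM under HFD. The HFD libraries lay close together and below every control. The log2 difference was -2.19 (SE 0.38; edgeR's adjusted p = 0.356), with -2.12 against the CD titles and -2.26 against the CD-CD titles.

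The other 6 genes with lower values under HFD were Exosc9, Eif3l, Zfyve26, Apmap, Btla and Gpt2. Exosc9, a subunit of the RNA exosome, was at 99.4 to 205 CPM in the controls with a median of 111 CPM, and at 46.9, 24.3 and 30.3 CPM under HFD (log2 -1.95, SE 0.33). Eif3l, a subunit of translation initiation factor 3, was at 168 to 209 CPM with a median of 186 CPM, and at 119, 76.0 and 107 CPM (-0.88, SE 0.16). Zfyve26, which encodes spastizin, a protein of lysosome and autophagy function, was at 31.1 to 84.5 CPM with a median of 55.8 CPM, and at 8.92, 6.52 and 12.2 CPM (-2.63, SE 0.44). In none of these 3 genes did an HFD library reach the lowest control. Apmap, an adipocyte plasma membrane-associated protein gene, was at 64.3 to 113 CPM in the controls with a median of 81.6 CPM, and at 28.6, 22.2 and 39.3 CPM under HFD (-1.49, SE 0.29). Btla, an inhibitory receptor of lymphocytes that is also found on myeloid cells, was at 234 to 319 CPM with a median of 243 CPM, and at 161, 143 and 180 CPM (-0.72, SE 0.15). Both genes were lower in every HFD library than in any control. Gpt2, a mitochondrial alanine aminotransferase gene, was at 6.33 to 27.1 CPM in the controls and at 0.469, 0.318 and 0.108 CPM under HFD. The HFD values lay near the floor of 3 counts, so the fitted log2 difference of -5.60 (-5.68 in DESeq2) rests on few reads.

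Among genes with higher values under HFD, 4 were well above the floor on both diets. Rspry1, a gene for a RING and SPRY domain protein, was at 61.8 to 100 CPM in the controls with a median of 89.5 CPM, and at 144, 150 and 144 CPM under HFD (log2 0.76, SE 0.18). Rfx2, a transcription factor gene best known from ciliated cells, was at 47.0 to 86.8 CPM with a median of 56.9 CPM, and at 144, 131 and 123 CPM (1.04, SE 0.24). Dip2b averaged 69.6 ± 10.3 CPM in the controls and 133 ± 28 under HFD. Tmem127, which encodes a transmembrane protein that restrains mTOR signalling, averaged 33.1 ± 9.7 and 83.3 ± 13.1 CPM. All 3 HFD libraries exceeded all controls in each of these genes. Fam83f, Lrrtm2 and Adgrg6 were under 3 CPM in every control and uneven under HFD, at 18.6, 1.75 and 8.84 CPM for Fam83f, 6.80, 37.7 and 5.07 CPM for Lrrtm2 and 7.27, 1.75 and 11.0 CPM for Adgrg6.

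C1qc, a chain of complement C1q on chromosome 4 (136889802 to 136892914) and a gene of tissue macrophages, was at 0.106 to 1.30 CPM in the controls with a median of 0.415 CPM, and at 19.7, 11.9 and 0.863 CPM in HFD libraries 1, 2 and 3. HFD library 3 lay within the control range. The neighbouring chains did not share the pattern: C1qa was at 0 to 0.586 CPM and C1qb at 0.118 to 5.70 CPM over the 9 libraries, with C1qb at 1.99, 0.795 and 0.755 CPM under HFD. The log2 difference for C1qc was 4.34 (SE 1.03; edgeR's adjusted p = 0.721 with the 9 monocyte libraries). In the fit of all 25 libraries, which shares 1 estimate of the spread with adipose macrophages, it was 4.37 (SE 0.55; adjusted p = 0.00156). Adipose macrophages, where C1qc stood at 866 ± 267 CPM on CD and 759 ± 192 on HFD, hold this transcript at levels that monocytes did not approach.

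**Figure D4:**
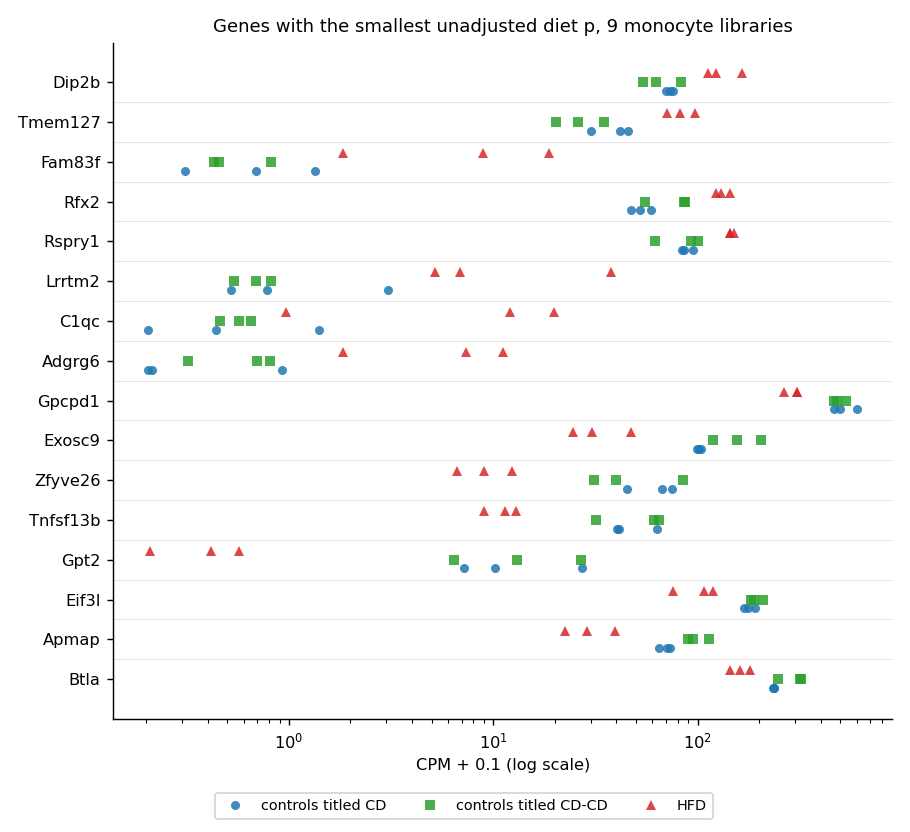
CPM + 0.1 (log axis) of the 16 genes with the smallest unadjusted diet p in each library, with controls titled CD as circles, controls titled CD-CD as squares and HFD as triangles. The triangles lie apart from all controls in 15 genes and reach into the control range for C1qc, where HFD library 3 is at 0.863 CPM.

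No member of the 34 gene lists passed the adjusted threshold in edgeR's test. Of 385 list genes tested, 22 (5.71%) had an unadjusted p under 0.05, 7 higher and 15 lower, against 5.97% of all genes (2.14% higher and 3.83% lower). For 198 (51.4%) the 95% interval lay within 1 log2 unit. DESeq2 called 9 of the 385 list genes, beside 1.3% of all genes (0.265% higher and 1.03% lower). They were C1qc and the Y-linked Kdm5d as higher, and Tnfsf13b, Ccr1, Slc2a3, Asns, Gclm, Hexa and Bpgm as lower.

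Classical monocyte genes differed little between the diets, and non-classical genes were measured less precisely. Of 12 classical genes 0 reached an unadjusted p under 0.05, with a median log2 difference of 0.05 and 11 intervals within 1 log2 unit. Ccr2, the receptor that directs exit from the marrow, was at 1642 to 2170 CPM in the controls and 2054, 2213 and 1720 CPM under HFD (log2 0.02, SE 0.10). The 14 non-classical genes had a median of 0.17, a range of -0.59 to 0.75 and 8 intervals within 1 log2 unit. Of these 14 genes 1 reached an unadjusted p under 0.05, beside 5.97% of all genes. It was Itgal, the integrin alpha chain of LFA-1, at 343 to 440 CPM in the controls and 502, 462 and 438 CPM under HFD (0.29, SE 0.10), where HFD library 3 fell below the highest control. Nr4a1, the factor on which non-classical monocytes depend, was at 123, 124 and 122 CPM under HFD and at 66.7 to 185 CPM in the controls (0.09, SE 0.28).

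Inflammatory and antigen-presenting genes also lacked a shift past the test. Of 15 cytokine and chemokine genes tested, 0 were higher and 2 lower at an unadjusted p under 0.05, beside 3.83% of all genes lower. The 15 genes had a median of -0.41 beside -0.01 for all genes, and only 4 had an interval within 1 log2 unit. The 2 lower genes were Tnfsf13b (above) and Il1rn, the interleukin 1 receptor antagonist gene. Il1rn was at 108 to 205 CPM in the controls and 87.6, 43.5 and 123 CPM under HFD (log2 -0.79, SE 0.33). Il1b overlapped, at 99.1 to 449 CPM in the controls and 243, 131 and 167 CPM under HFD. Tnf was at 0.106 to 41.0 CPM in the controls and 1.06, 0.636 and 19.5 CPM under HFD. Among 15 chemokine receptor and adhesion genes 1 was lower: Ccr1, a receptor for CCL3 and CCL5, at 172 to 311 CPM in the controls and 185, 95.8 and 138 CPM under HFD (-0.80, SE 0.24; edgeR's adjusted p = 0.721). In the lists of interferon-stimulated genes (20 tested, median 0.07), toll-like receptor signalling (18, median 0.04) and antigen presentation (15, median 0.14), 0 members reached p under 0.05. Of the 15 antigen presentation genes 13 had values above 0, from H2-Eb1 at 0.27 down to Psmb9 at 0.04. The list summed to 3718 to 4823 CPM in the controls and to 4299, 5038 and 4330 CPM in HFD libraries 1, 2 and 3. Only HFD library 2, the shallowest, lay above the controls. Among 16 Fc receptor and complement genes 1 was higher at an unadjusted p under 0.05, beside 2.14% of all genes. It was Cfb, complement factor B, at 2.09 to 36.3 CPM in the controls and 35.9, 57.5 and 38.6 CPM under HFD (1.81, SE 0.74).

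Of 16 myeloid transcription factor genes tested, 14 had values above 0 (median 0.22, beside -0.01 for all genes), and 2 were higher at an unadjusted p under 0.05, beside 2.14% of all genes. The list summed to 2173 to 3188 CPM in the controls and to 2924, 3352 and 2716 CPM in HFD libraries 1, 2 and 3. Between the title series of the controls, 5 genes of the same list were lower and 1 higher in the CD-CD titles at an unadjusted p under 0.05 (median -0.28). Over all genes in that contrast 3.41% were lower and 4.76% higher at that p, with a median of 0. After adjustment 0 genes of the list passed in edgeR's test. Stat3 was at 139 to 245 CPM in the controls and 262, 271 and 266 CPM under HFD (log2 0.43, SE 0.16), and Klf2 at 175 to 252 and at 224, 329 and 282 CPM (0.39, SE 0.14). STAT3 relays cytokine signals and KLF2 restrains monocyte activation. The HFD libraries exceeded all controls for Stat3 and overlapped with them for Klf2. Spi1, the master factor of the myeloid lineage, differed by -0.01 (SE 0.20).

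Lipid and energy genes were measured because the diets differ in fat. Of 22 genes of lipid uptake and PPAR targets 0 reached an unadjusted p under 0.05 (median 0.01), including Cd36 at 0.25 (SE 0.34), Cpt1a at 0.04 (SE 0.18) and Plin2 at -0.11 (SE 0.21). Of 12 genes of cholesterol efflux and LXR targets 0 did (median 0.06), with Abca1 at -0.60 (SE 0.42) and Abcg1 at -0.09 (SE 0.23). Of 21 genes of sterol and fatty acid synthesis 0 did (median -0.37), and only 3 had an interval within 1 log2 unit, since most were scarce. Sqle, squalene epoxidase, was at 16.4 to 42.2 CPM in the controls and at 14.4, 0 and 0 CPM under HFD (edgeR's adjusted p = 0.862), and Srebf1, the factor that drives fatty acid synthesis, at 7.89 to 22.4 and 35.5, 26.9 and 23.0 CPM (edgeR's unadjusted p = 0.0519). In both genes the HFD libraries lay outside the control range, in opposite directions. Without HFD library 1, in which it was detected, Sqle was the single gene called by edgeR.

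In mitochondrial, stress and lysosome lists, single members had an unadjusted p under 0.05 in edgeR's test. Over all genes 3.83% were lower and 2.14% higher at that p. Of 20 genes of oxidative phosphorylation 1 was lower at an unadjusted p under 0.05 (median 0.05), the complex I subunit gene Ndufs1 at -0.70 (SE 0.25), and 17 had intervals within 1 log2 unit. Glycolysis had 1 lower gene of 18, the glucose transporter gene Slc2a3, at 0.704, 0 and 0 CPM under HFD and 0.708 to 74.7 CPM in the controls, a range set largely by 1 library. In the antioxidant list Gclm, a subunit of the enzyme that limits glutathione synthesis, was lower (-1.57, SE 0.43), at 32.3 to 98.6 CPM in the controls and 25.6, 12.1 and 33.9 CPM under HFD. Of 14 lysosome and iron genes 2 were lower at that p. Of these Hexa, a lysosomal enzyme gene, was at 269 to 346 CPM in the controls and 239, 227 and 259 CPM under HFD (-0.40, SE 0.11), and no HFD library reached the lowest control. The unfolded protein response list had Herpud1 higher (0.38, SE 0.14) and Asns lower, the latter under 3 counts in every HFD library and under 3 counts in 2 of the controls. Sgk1 (-0.57, SE 0.17), Btg2 (-0.45, SE 0.15), Ccna2 (-1.17, SE 0.39) and Ccnb2 (-4.23, SE 1.90) were the lower genes of the glucocorticoid, immediate early and proliferation lists, which had 19, 16 and 14 tested members.

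The remaining lists gave few testable genes or none past p 0.05. At an unadjusted p under 0.05 in edgeR's test, 3.83% of all genes were lower and 2.14% higher under HFD. Of 11 granule and alarmin genes and 6 growth factor genes 0 reached an unadjusted p under 0.05, with medians of -0.09 and 0.21. The same held for 7 T cell, 2 B cell, 2 neutrophil, 7 dendritic cell and 7 platelet genes, with medians of 0.24, -0.11, -1.18, -0.06 and 0.43, and for the single tested genes of the eosinophil, adipocyte and stromal lists. Of 3 NK cell genes Gzma, a granule protease gene, was lower, but all 3 HFD libraries and 3 of the controls were under 3 counts. Of 10 red cell genes Bpgm, the bisphosphoglycerate mutase gene, was lower, at 44.3 to 144 CPM in the controls and 36.8, 35.4 and 56.0 CPM under HFD (-1.18, SE 0.36). Of 4 sex chromosome genes Kdm5d, a histone demethylase gene on the Y chromosome, was higher, at 43.9 to 70.4 CPM in the controls and 87.6, 92.0 and 103 CPM under HFD (0.72, SE 0.21). Bpgm overlapped between the diets and Kdm5d did not.

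Among the other genes that DESeq2 called and edgeR did not, the following immune genes were chosen after their values were seen. Cd274, which encodes the checkpoint ligand PD-L1, was at 7.70 to 67.6 CPM in the controls with a median of 34.0 CPM, and at 7.62, 0.636 and 3.24 CPM under HFD (edgeR's adjusted p = 0.721; DESeq2's adjusted p = 0.0019). Axl, a receptor for apoptotic cells, was at 32.9 to 105 CPM with a median of 75.7 CPM, and at 117, 176 and 175 CPM under HFD (edgeR's adjusted p = 0.721; DESeq2's adjusted p = 0.0289). Ripk2, the kinase of NOD signalling, was at 73.5 to 174 CPM and at 42.8, 17.2 and 69.0 CPM. Arg2, the mitochondrial arginase gene, was at 8.49 to 60.3 CPM and at 6.92, 7.79 and 7.77 CPM. In these 4 genes no HFD library overlapped with the controls, by margins as narrow as 7.62 against 7.70 CPM for Cd274. The choice of genes favours this. Of the 147 genes that DESeq2 called, 94 did not overlap. Over all genes tested, the HFD libraries lay above all controls for 1.41% and below for 1.57%. Other immune genes among DESeq2's calls did overlap, such as Klre1, Il1r2, Gbp4 and Tnfaip6.

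The controls were also compared among themselves by title series. Between CD-CD6 to CD-CD8 and CD1 to CD3, edgeR's test called 0 of 10862 genes, with a smallest adjusted p of 0.0659, and 887 (8.17%) had an unadjusted p under 0.05, 517 (4.76%) higher and 370 (3.41%) lower in the CD-CD titles. Cd209d and Cd209e, related lectin genes, led this comparison, and whether reads were split between them is not known. Cd209d was at 43.0, 78.2 and 79.4 CPM in CD-CD6 to CD-CD8 and at 0 to 0.113 CPM in CD1 to CD3, and the HFD libraries fell across both levels at 61.0, 0.318 and 7.66 CPM. Gimap4, a lymphocyte GTPase gene, was at 21.1 to 104 CPM and at no more than 0.422 CPM. Dnph1, Ndst1 and Fzd4 were lower in the CD-CD titles, and among abundant genes Vps26a (log2 0.75, SE 0.11) and Impa1 (0.65, SE 0.10) were higher, Usp9x (-1.89, SE 0.29) and Cbl (-1.74, SE 0.30) lower, by values and not by a call. Usp9x, a deubiquitinase gene on the X chromosome, was at 109, 113 and 123 CPM in CD1 to CD3, at 26.8, 41.8 and 24.0 CPM in CD-CD6 to CD-CD8 and at 105, 104 and 59.4 CPM under HFD.

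Several monocyte genes took part in that contrast. Of 12 classical genes 4 and of 14 non-classical genes 5 were lower in the CD-CD titles at an unadjusted p under 0.05, and 0 were higher in either list. Beside them, 3.41% of all genes were lower and 4.76% higher at that p, and edgeR's test called 0 genes after adjustment. Vcan, a matrix proteoglycan gene of classical monocytes, was at 459, 710 and 779 CPM in CD1 to CD3 and at 330, 324 and 272 CPM in CD-CD6 to CD-CD8, with 458, 439 and 191 CPM under HFD. Nr4a1 was at 185, 129 and 132 CPM and at 66.7, 85.8 and 95.1 CPM. Of 7 dendritic cell genes 3 were higher in the CD-CD titles at an unadjusted p under 0.05. Cd209a, a lectin gene of dendritic cells and of some monocytes, was at 337, 198 and 159 CPM in CD1 to CD3 and at 685, 554 and 487 CPM in CD-CD6 to CD-CD8. Irf4, a transcription factor gene of monocyte-derived dendritic cells, was at 94.3, 101 and 63.1 CPM and at 203, 184 and 155 CPM. The title series did not overlap in any of these 4 genes, which were chosen for this contrast after their values were seen. The choice favours such a separation, and the share of all genes that separate by title series was not counted. The dendritic cell sum was 334 to 570 CPM in CD1 to CD3 and 860 to 924 CPM in CD-CD6 to CD-CD8, and its part in these differences was not tested.

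**Figure D5:**
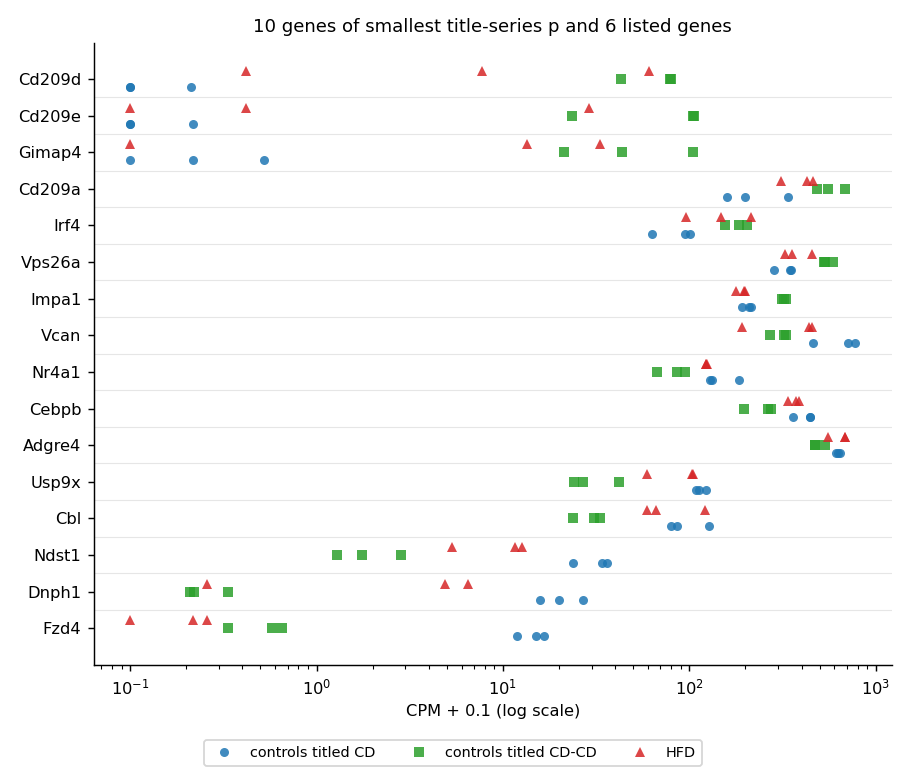
CPM + 0.1 (log axis) of the 10 genes with the smallest p between control title series and of 6 listed genes chosen after their values were seen, in each library. Circles (CD titles) and squares (CD-CD titles) separate in every gene shown, which the choice of genes favours. Cd209a, for instance, is at 159 to 337 against 487 to 685 CPM. The HFD triangles take varying positions.

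Against each title series alone, HFD monocytes had 456 of 10671 genes (4.27%) at an unadjusted p under 0.05 for the CD titles and 813 of 10662 (7.63%) for the CD-CD titles, with 0 called by edgeR in either and smallest adjusted p-values of 0.892 and 0.443. In the former 2.39% of genes were higher and 1.88% lower under HFD at that p, and in the latter 3.03% and 4.6%. These comparisons share the HFD libraries. The direction of Nr4a1 turned with the choice of control, at -0.27 (SE 0.21) against the CD titles and 0.57 (SE 0.21) against the CD-CD titles.

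The diet difference of monocytes was last set against that of adipose macrophages in 1 fit of 25 libraries. In adipose macrophages, averaged over 4 sorted populations, 906 of 16961 genes (5.34%) passed adjusted p 0.05. The adipose titles carry only CD-CD7, CD-CD8, HFD2 and HFD3, each repeated over the 4 populations and among the monocyte titles. The labels do not say whether a title number marks 1 animal, and the fit took all 25 libraries as independent. If it does, the p-values of this fit count libraries of the same animal as replicates. The difference between the 2 diet effects passed for 15 genes (0.0884%), all with the higher value in monocytes. DESeq2 called 378 genes for this difference, 188 higher and 190 lower, so the single direction holds for the calls of this edgeR fit. Without CD1, HFD2 or HFD3, and with only the CD-CD monocyte controls, edgeR's calls each time included 1 lower gene. C1qc differed by 4.55 (SE 0.64; edgeR's adjusted p = 0.00875). Ifitm6, an interferon-induced membrane protein gene, averaged 359 CPM in monocytes on CD and 401 on HFD (log2 0.19), and 276 ± 36 and 152 ± 60 CPM in adipose macrophages (-0.95), a difference of 1.13 (SE 0.19; adjusted p = 0.0332). Ggh, gamma-glutamyl hydrolase, gave 0.04 in monocytes and -1.10 in adipose macrophages, and Tmem60 gave 0.13 and -1.47 (both adjusted p = 0.0332). In the same fit the diet effect itself passed in adipose macrophages for these 3 genes (adjusted p 4.23e-05 to 6.94e-05) and had an adjusted p of 1 in monocytes. The adipose controls are all titled CD-CD, and with only the CD-CD monocyte controls 2 genes passed, Cd63 and Gpr34. Leaving out any 1 of the 9 monocyte libraries left 0 to 9 genes, with 0 without HFD library 1, where C1qc had an adjusted p of 0.0544.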

How the data were processed

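Raw read counts per gene model were deposited by the authors for 24537 RefSeq models. STAR 2.5.3a, HOMER and the mm10 build are the tools and genome named per the submitters' processing notes. Strand, duplicate removal, multiple matches and annotation version are not given in the sources used here, so related genes of 1 family (Cd209d and Cd209e, Ly6, haemoglobin and Ifitm genes), overlapping and antisense genes are uncertain. The 9 monocyte libraries were grouped by diet label and tested without adipose libraries in edgeR 4.0.16 (R 4.3.3): TMM, filterByExpr by diet, robust quasi-likelihood F test, Benjamini-Hochberg over all genes, threshold 0.05, 7 residual degrees of freedom, biological coefficient of variation 0.677. CPM and RPKM (table length) were computed from the counts; log2(CPM + 1) served spread and correlation. DESeq2 1.42.0 and limma-voom 3.58.1 were alternatives. Named genes were, by rule, the 8 per direction with the smallest p and at least 5 CPM, the 20 highest by RPKM, the 12 most and 6 least variable, 5 per direction by title series, 4 of the difference of diet effects, and, per list, up to 4 members of highest level or smallest p. Any other list member named was chosen after its values were seen. The members and the 34 lists (493 genes, 488 in the table) were chosen with earlier results of these data known. The test was tried on simulated data. Some genes are not reported here.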

Additional observations from a re-analysis of the deposited data

Results flagged for a closer look

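Over 104 values checked in the 6 control libraries (genes named in the text, list sums and library measures), 6 had a library apart from the others by Dixon's criterion at 95%, which compares the gap to the nearest library with the range. Chance gives about 1 in 20, or 5.2 of 104. Library CD1 was apart for Lrrtm2 (2.96 CPM beside 0.422 to 0.717), C1qc (1.30 CPM beside 0.106 to 0.551) and Ifitm3 (801 CPM beside 609 to 670). Library CD3 was apart for 1110008F13Rik (325 CPM beside 311 to 316) and for the summed immediate early and heat shock list (1914 CPM beside 1436 to 1545). Library CD-CD6 was apart for the stromal and endothelial list, at 20.8 CPM beside 2.53 to 8.54.

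The diet effect differed between monocytes and adipose macrophages, by the test of the difference itself, for C1qc (4.55 on the log2 scale), Tmem60 (1.60), Ggh (1.14) and Ifitm6 (1.13). That test took libraries of the same title number as independent. The values of these 4 genes kept their direction under every alternative run, which their choice by p favours. C1qc lost the threshold without HFD library 1 (adjusted p = 0.0544 in edgeR's test), with the CD-CD monocyte controls alone (0.0905), with no filter on low counts (0.062) and with the replicate block (0.455). Adjusted p over the other alternatives ran from 8.7e-07 to 0.0499 for C1qc. Ifitm6, Ggh and Tmem60 each lost the threshold in 9 of 14 alternatives, against 4 of 14 for C1qc, and their adjusted p reached 0.455 with the replicate block. These 9 were no filter, the block, the CD-CD monocyte controls alone, and leaving out CD2, CD-CD6, CD-CD7, CD-CD8, HFD1 or HFD2.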

How the results depend on the processing

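The count of genes called between diets was 0 under both other scalings in edgeR, limma-voom, both filters, each title series of controls, and covariates for receptor background and red cell genes. It was 147 in DESeq2 and 1 (C1qc) with all 25 libraries in the edgeR fit. In DESeq2 settings added after seeing the data it was 138 with the CD titles, 349 with the CD-CD titles and 41 among genes averaging at least 20 CPM. Leaving out each library in turn gave 0 to 1 genes, the 1 being Sqle without HFD library 1. The 16 genes described kept their direction in all 372 recomputed values, which their choice by p in these same libraries favours. Between title series the count was 451 in DESeq2 and 3 (Cd209d, Cd209e, Gimap4) with no filter, and 0 to 0 with a library left out. For the difference of diet effects (15 genes) it was 10 with DESeq2's size factors in edgeR, 378 in DESeq2 (188 higher, 190 lower), 0 with no filter on low counts, 2 with CD-CD monocyte controls alone, and 0 to 9 with a library left out. The lowest counts came without HFD library 1 (0) and without CD-CD6, CD-CD7 or CD-CD8 (1 each), then without CD2 or HFD2 (2 each), CD3 (5), HFD3 (8) and CD1 (9). With no filter the median log2 diet difference over all genes was -0.21, and that between title series 0.14. The causes of these shifts were not tested.

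The labels do not say that title numbers pair animals. Same-numbered CD and HFD libraries deviated together at correlations of 0.00, -0.02 and 0.00, and the numbers were not treated as pairs. These libraries differ in diet, so the check cannot show whether a number marks the same animal across cell populations, which was not tested. The replicate block joined CD and HFD libraries of the same number, so it was not a block by animal. With the replicate block, 0 genes were called between diets (377 at an unadjusted p under 0.05, beside 456 for the same 6 libraries unblocked), and 1 gene (Gpr34) for the difference of diet effects.

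Depth and spread limit scarce genes: under 20 CPM, few intervals exclude a doubling, so missing calls there do not show equal expression.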
